A study of Mus musculus with 6 samples.

Results

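The genes described here are those of the platelet-derived growth factor (PDGF) family in embryonic mouse pancreas. The 7 members were chosen by name and comprise the ligand genes *Pdgfa*, *Pdgfb*, *Pdgfc* and *Pdgfd*, the receptor genes *Pdgfra* and *Pdgfrb*, and the receptor-like gene *Pdgfrl*, out of 37224 genes counted. RNA was sequenced from whole pancreata of wild type (wt) C57/Bl6J embryos at 13.5 and 15.5 days post coitum (dpc), with 3 samples at each stage. Each sample was a pool of up to 3 embryos, none carried a mutant allele and none was treated. The stages span the secondary transition, when acinar, endocrine and duct cells are specified, and the comparison asks which PDGF genes changed across it.

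PDGFs are secreted dimers that bind a pair of receptor tyrosine kinases. As general background, PDGF-AA and PDGF-CC act mainly through the alpha receptor encoded by *Pdgfra*, PDGF-BB binds both receptors, and PDGF-DD acts mainly through the beta receptor encoded by *Pdgfrb*. In developing organs the alpha receptor is typically carried by mesenchymal progenitors and fibroblasts and the beta receptor by pericytes and other perivascular cells, whereas ligands are often made by neighbouring epithelium or endothelium. PDGF-A and PDGF-B are activated inside the cell by proprotein convertases, while PDGF-C and PDGF-D are secreted in a latent form that is cleaved outside it.

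The total counts were 10546028 to 16389237 per sample. Counts were scaled with the TMM factors of edgeR and are given as normalised counts, and a gene is said to have risen or fallen where edgeR's quasi-likelihood test gave an adjusted p at or below 0.05 over the 15578 genes tested. The 15.5 dpc samples differed more among themselves than the 13.5 dpc samples. The chi-square statistic per gene between samples of one stage was 1.61 to 4.95 at 13.5 dpc and 15.3 to 73.8 at 15.5 dpc, and the log2 difference between 15.5 dpc replicates 1 and 2 ran with exon length across genes (Spearman rho = -0.59, where genes are not independent replicates). The samples are described as biological replicates, and p-values measure the spread between these pools. Markers of pancreas were present at both stages, with 1225 and 1361 normalised counts on average for the pancreatic transcription factor gene *Pdx1* in the respective stages. Genes listed for neighbouring organs were also detected. Those listed for liver, *Ttr* (5124 and 7171), *Afp* (924 and 584) and *Alb* (224 and 147), were expressed at both stages. So was the stomach mesenchyme gene *Barx1* (873 and 532), whereas the intestinal gene *Cdx2* was near 0 (2.28 and 2.82). Of the 3 genes listed for liver, *Afp* fell (-0.66 on the log2 scale, adjusted p = 0.0291, edgeR). *Alb* (-0.61, adjusted p = 0.308) and *Ttr* (0.48, adjusted p = 0.152, edgeR) did not pass the test. *Afp* was not called without 13.5 dpc replicate 1 or 2 or 15.5 dpc replicate 3. The summed level of these 3 genes was 360 to 386 RPKM at 13.5 dpc and 672, 352 and 456 RPKM in 15.5 dpc replicates 1, 2 and 3, where RPKM is a level per exon length. Most of it was *Ttr*, at 332.6 and 465.5 RPKM on average at 13.5 and 15.5 dpc. *Afp* had 35.0 and 22.1 RPKM and *Alb* 8.69 and 5.68 RPKM. The part of RNA from neighbouring organs in the results was not tested, nor was whether *Ttr* RNA came from liver or from pancreas.

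All 7 members passed the filter on low counts. *Pdgfra* and *Pdgfc* fell, *Pdgfb* rose, and *Pdgfa*, *Pdgfd*, *Pdgfrb* and *Pdgfrl* did not pass the test. Thus 3 of 7 members were called, where 22.3% of all genes tested were called. With the direction taken into account, 2 members were lower at 15.5 dpc (10.7% of all genes) and 1 was higher (11.6%). For 4 members, *Pdgfra*, *Pdgfc*, *Pdgfa* and *Pdgfb*, all samples of one stage lay above all of the other, as they did for 46.4% of all genes. The study's methods set other thresholds, namely an adjusted p of at most 0.1, a mean above 100 normalised counts in one stage or the other, and a fold below 0.6 or above 1.6. These called *Pdgfra* and *Pdgfc*, both lower, against 10.4% of the protein-coding genes tested (6.47% higher and 3.9% lower).

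To place the genes that fell beside another ligand gene, the 250 bases before the RefSeq start of *Pdgfra*, *Pdgfc* and *Pdgfa* are shown. *Pdgfa* was higher in every 15.5 dpc sample but did not pass the test (adjusted p = 0.0517, edgeR). The sequences are from GRCm38.p6 (mm10) and read 5′ to 3′ on the strand of the gene. Capitals mark the letters of 4 motifs that were searched on both strands, the TATA box TATAAA, the GC box GGGCGG, the CCAAT box CCAAT and the TEAD motif GGAATG. The regions are chr5:75152001-75152250 (plus strand) for *Pdgfra*, chr3:81036166-81036415 (plus strand) for *Pdgfc* and chr5:138994945-138995194 (minus strand) for one of 2 listed starts of *Pdgfa*.
Pdgfra: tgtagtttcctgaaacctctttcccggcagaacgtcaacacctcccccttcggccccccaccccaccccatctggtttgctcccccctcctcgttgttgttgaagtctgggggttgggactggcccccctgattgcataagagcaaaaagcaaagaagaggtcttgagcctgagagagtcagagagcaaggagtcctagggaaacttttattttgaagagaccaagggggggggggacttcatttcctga
Pdgfc: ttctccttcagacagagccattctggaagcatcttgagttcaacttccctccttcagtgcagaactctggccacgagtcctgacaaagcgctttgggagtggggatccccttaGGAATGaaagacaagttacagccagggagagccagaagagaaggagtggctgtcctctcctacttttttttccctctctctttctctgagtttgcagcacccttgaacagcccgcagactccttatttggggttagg
Pdgfa: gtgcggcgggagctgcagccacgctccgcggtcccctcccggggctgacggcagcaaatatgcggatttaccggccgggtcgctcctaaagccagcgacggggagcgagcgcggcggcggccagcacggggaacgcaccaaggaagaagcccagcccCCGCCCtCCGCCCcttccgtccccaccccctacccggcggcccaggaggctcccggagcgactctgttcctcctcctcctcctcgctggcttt
The *Pdgfra* window held none of the 4 motifs. The *Pdgfc* window held 1 TEAD motif, which 12.6% of 32851 RefSeq windows of the same length held. The *Pdgfa* window held 2 GC boxes (32.7% of all windows held at least 1). The GC content was 54.4% for *Pdgfra* and 50.8% for *Pdgfc*, near the median of 52.4% over all windows, and 72.4% for *Pdgfa*. The other *Pdgfa* start, at chr5:138994282-138994531, had a GC content of 66.4% and 1 GC box, and the *Pdgfd* window, at chr9:6168236-6168485, had 53.6% and 1 TATA box (12.4% of all windows). *Pdgfb*, *Pdgfrb* and *Pdgfrl* were not examined in this way. A match describes the letters in a window and shows no binding.

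*Pdgfra*, the alpha receptor gene, lies on chromosome 5 of mm10 from 75152291 to 75198204 on the plus strand and was counted over 6737 exon bases. Its normalised counts were 1765, 1682 and 1748 in 13.5 dpc replicates 1, 2 and 3, and 490, 933 and 637 in 15.5 dpc replicates 1, 2 and 3. All 15.5 dpc samples lay far below all 13.5 dpc samples, and they differed among themselves, with replicate 2 highest and replicate 1 lowest. The mean fell from 1732 ± 43.8 to 687 ± 225 (SD, n = 3), a fold of 0.398 (log2 fold change -1.33, standard error 0.21, adjusted p = 0.00605, edgeR). The fall held in each of 15 alternative fits, with log2 fold changes of -1.60 to -1.14. Its smallest size came without 15.5 dpc replicate 1 (-1.14) and its largest without 15.5 dpc replicate 2 (-1.60), and it was -1.16 with the trend of each library with exon length removed. In a bulk sample such as these, fewer cells of a type and less RNA per cell cannot be told apart.

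*Pdgfrb*, the beta receptor gene, lies on chromosome 18 from 61045150 to 61085061 on the plus strand, with 5478 exon bases counted. It had 1943, 1909 and 2166 normalised counts at 13.5 dpc and 1474, 1965 and 1729 at 15.5 dpc in replicates 1, 2 and 3. Replicate 2 of 15.5 dpc lay within the 13.5 dpc samples, so that the stages overlapped. The means were 2006 ± 139 and 1723 ± 246 (SD, n = 3), or -0.22 on the log2 scale, with a 95% confidence interval of -0.51 to 0.07 and an adjusted p of 0.229 by edgeR. Without 15.5 dpc replicate 2 the change was -0.31 and passed the test (adjusted p = 0.0432), and with the trend with exon length removed it was -0.09 (adjusted p = 0.387). This interval lay wholly above that of *Pdgfra*, which was -1.83 to -0.83.

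**Figure D1:**
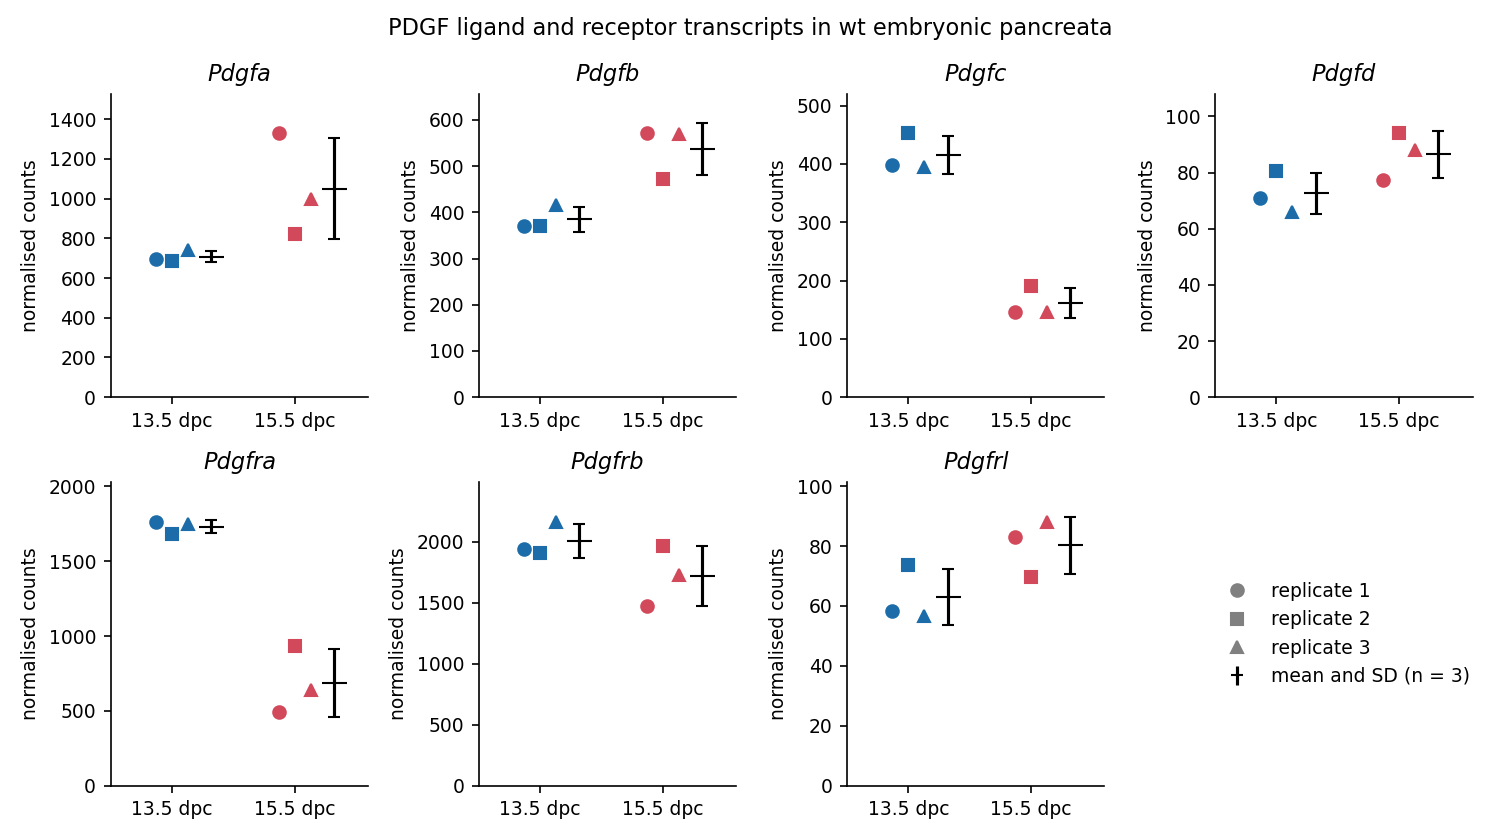
Normalised counts (vertical axes, from 0) of the 7 PDGF genes at 13.5 and 15.5 dpc, with one symbol per replicate and black bars for the mean and SD of 3 samples. The 15.5 dpc samples of *Pdgfra* (490 to 933) and *Pdgfc* (146 to 190) sit below all 13.5 dpc samples, those of *Pdgfa* and *Pdgfb* sit above them, and the stages overlap for *Pdgfd*, *Pdgfrb* and *Pdgfrl*.

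The receptors were also compared with each other within each library, where scaling between libraries plays no part. Levels were expressed per length as RPKM, which is the count divided by the TMM-scaled library size and by the exon length. At 13.5 dpc the level of *Pdgfra* was 0.739, 0.716 and 0.656 of that of *Pdgfrb* in replicates 1, 2 and 3, and at 15.5 dpc it was 0.270, 0.386 and 0.300. The ratio was thus lower in every 15.5 dpc sample than in any 13.5 dpc sample. On the log2 scale the ratio changed from -0.51 ± 0.09 to -1.67 ± 0.26 (SD, n = 3), a difference of -1.16 (p = 0.1 in a two-sided exact permutation test, the smallest value that 3 samples against 3 allow, and 0.1 after Benjamini-Hochberg adjustment over the 4 ratios tested). It was -1.31 to -1.05 when each sample was left out in turn and -1.10 with the trend with exon length removed. Of the summed receptor level, *Pdgfra* made up 41.3% ± 1.48 at 13.5 dpc and 24.1% ± 3.39 at 15.5 dpc (SD, n = 3). The sum of both receptors was 47.3 to 51.8 RPKM at 13.5 dpc and 27.0 to 39.4 RPKM at 15.5 dpc.

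Among the ligands, *Pdgfc* showed the greatest change. *Pdgfc*, which encodes a latent ligand of the alpha receptor, lies on chromosome 3 from 81036416 to 81214040 on the plus strand and was counted over 5089 exon bases. It had 397, 453 and 394 normalised counts at 13.5 dpc and 147, 190 and 146 at 15.5 dpc. Every 15.5 dpc sample had less than every 13.5 dpc sample, and the spread within each stage was small beside the gap. The mean fell from 415 ± 32.9 to 161 ± 25.3 (SD, n = 3), a fold of 0.39 (log2 fold change -1.36, standard error 0.14, adjusted p = 0.00122, edgeR). All 15 alternative fits called this fall, with log2 fold changes of -1.56 with library size only to -1.24 with the trend with exon length removed.

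*Pdgfa* encodes the other ligand that acts mainly through the alpha receptor. It lies on chromosome 5 from 138976014 to 138997370 on the minus strand, with 3119 exon bases counted. At 13.5 dpc the samples had 695, 688 and 741 normalised counts, and they had 1330, 824 and 999.8 at 15.5 dpc. The 15.5 dpc samples all lay above the 13.5 dpc samples but were widely spread, with replicate 1 highest and replicate 2 lowest, the reverse of their order for *Pdgfra*. The means were 708 ± 29.0 and 1051 ± 257 (SD, n = 3), or 0.57 on the log2 scale (standard error 0.17, 95% confidence interval 0.17 to 0.97) with an adjusted p of 0.0517, just above the threshold in edgeR's test. It passed in 5 of 15 alternative fits, among them DESeq2 (0.58, adjusted p = 0.017), the fit without 15.5 dpc replicate 1 (0.36, adjusted p = 0.028) and that without 15.5 dpc replicate 2 (0.73, adjusted p = 0.00241). Of its exon bases, 813 lie opposite exons of the antisense gene *6330403L08Rik*, which had 119 to 149 counts at 13.5 dpc and 50 to 90 at 15.5 dpc.

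*Pdgfb*, whose product binds both receptors and is best known for recruiting pericytes to vessels, lies on chromosome 15 from 79995900 to 80014808 on the minus strand, with 2918 exon bases counted. It had 370, 370 and 417 normalised counts at 13.5 dpc and 572, 472 and 569 at 15.5 dpc. The lowest 15.5 dpc sample, replicate 2, lay above the highest 13.5 dpc sample. The mean rose from 385 ± 27.1 to 538 ± 56.6 (SD, n = 3), a fold of 1.39 (log2 fold change 0.48, standard error 0.12, adjusted p = 0.0259, edgeR). This call was less firm than those of *Pdgfra* and *Pdgfc*. It was lost without 13.5 dpc replicate 1 (adjusted p = 0.118), replicate 2 (0.117) or replicate 3 (0.0684), without 15.5 dpc replicate 3 (0.112) and with library size only (log2 fold change 0.26, adjusted p = 0.118), although the log2 fold change stayed positive, from 0.26 to 0.58, over the 15 alternative fits. The median over all genes tested was -0.01 with TMM and -0.22 on the log2 scale with library size only, so that relative to this shift the change of *Pdgfb* was about the same as with TMM.

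*Pdgfd*, the gene of the ligand that acts mainly through the beta receptor, lies on chromosome 9 from 6168612 to 6378843 on the plus strand, with 3119 exon bases counted. It was scarce, at 71.1, 80.6 and 66.1 normalised counts at 13.5 dpc and 77.5, 94.1 and 88.2 at 15.5 dpc. The stages overlapped. The log2 fold change was 0.26 (95% confidence interval -0.10 to 0.62, adjusted p = 0.242, edgeR), and none of the 15 alternative fits called it.

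*Pdgfrl* encodes a protein that resembles the ligand-binding part of the receptors and has no kinase domain. It lies on chromosome 8 from 40926212 to 40990785 on the plus strand, with 3126 exon bases counted, and had 58.3, 73.7 and 56.8 normalised counts at 13.5 dpc and 83.0, 69.5 and 88.2 at 15.5 dpc. In replicate 2 alone the 15.5 dpc value lay among the 13.5 dpc values. The log2 fold change was 0.35 (95% confidence interval -0.06 to 0.76, adjusted p = 0.183, edgeR), and none of the 15 alternative fits called it. These were the members with the fewest reads, 56 to 94 per sample for *Pdgfd* and 60 to 86 for *Pdgfrl*.

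**Figure D2:**
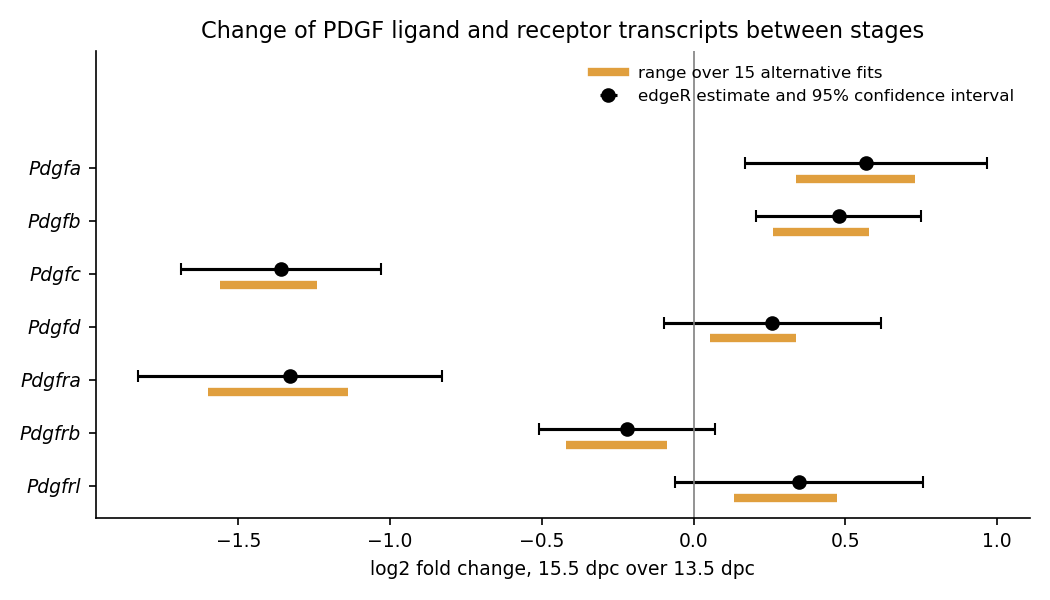
Log2 fold change of each PDGF gene from 13.5 to 15.5 dpc (horizontal axis), with points and thin bars for the edgeR estimate and its 95% confidence interval and thick bars for the range over 15 alternative fits. *Pdgfc* and *Pdgfra* lie near -1.36 and -1.33 and keep clear of 0, *Pdgfa* and *Pdgfb* lie above 0, and the intervals of *Pdgfd*, *Pdgfrb* and *Pdgfrl* cross it.

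The order of the levels per length differed between the stages. At 13.5 dpc *Pdgfrb* was highest at 29.0 ± 2.01 RPKM, followed by *Pdgfra* at 20.3 ± 0.514, *Pdgfa* at 18.0 ± 0.737, *Pdgfb* at 10.4 ± 0.734 and *Pdgfc* at 6.45 ± 0.511 (SD, n = 3), and no neighbours among these overlapped between samples. *Pdgfd* (1.84 ± 0.187) and *Pdgfrl* (1.59 ± 0.238) were lowest and overlapped each other. At 15.5 dpc *Pdgfa* at 26.7 ± 6.51 RPKM and *Pdgfrb* at 24.9 ± 3.55 were highest and overlapped. *Pdgfb* followed at 14.6 ± 1.53, then *Pdgfra* at 8.06 ± 2.65, and the lowest were *Pdgfc* (2.50 ± 0.393), *Pdgfd* (2.20 ± 0.213) and *Pdgfrl* (2.03 ± 0.243), each of which overlapped the next. *Pdgfra* was thus above *Pdgfa* and *Pdgfb* in every 13.5 dpc sample and below both in every 15.5 dpc sample. Among all genes tested, the mean level of *Pdgfra* went from the 77.3 to the 52.8 percentile and that of *Pdgfc* from the 46.4 to the 26.6 percentile.

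The make-up of the ligands shifted accordingly. *Pdgfa* made up 48.9% ± 1.05 of the summed ligand level at 13.5 dpc and 57.5% ± 4.96 at 15.5 dpc, and *Pdgfb* 28.4% ± 1.22 and 31.9% ± 2.65 (SD, n = 3). *Pdgfc* went from 17.6% ± 1.56 to 5.62% ± 1.73, while *Pdgfd* stayed at 5.03% ± 0.587 and 4.91% ± 1.22. The summed level was 35.6 to 37.9 RPKM in the 13.5 dpc samples and 39.1 to 53.5 RPKM in the 15.5 dpc samples. The level of *Pdgfc* relative to *Pdgfa*, the genes of the ligands of the alpha receptor, was 0.350, 0.404 and 0.326 at 13.5 dpc and 0.0676, 0.141 and 0.0895 at 15.5 dpc. This log2 ratio changed from -1.48 ± 0.16 to -3.40 ± 0.54 (SD, n = 3), a difference of -1.92 (p = 0.1 in a two-sided exact permutation test, the smallest possible, and 0.1 adjusted over the 4 ratios). It was -2.20 to -1.67 when each sample was left out in turn.

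**Figure D3:**
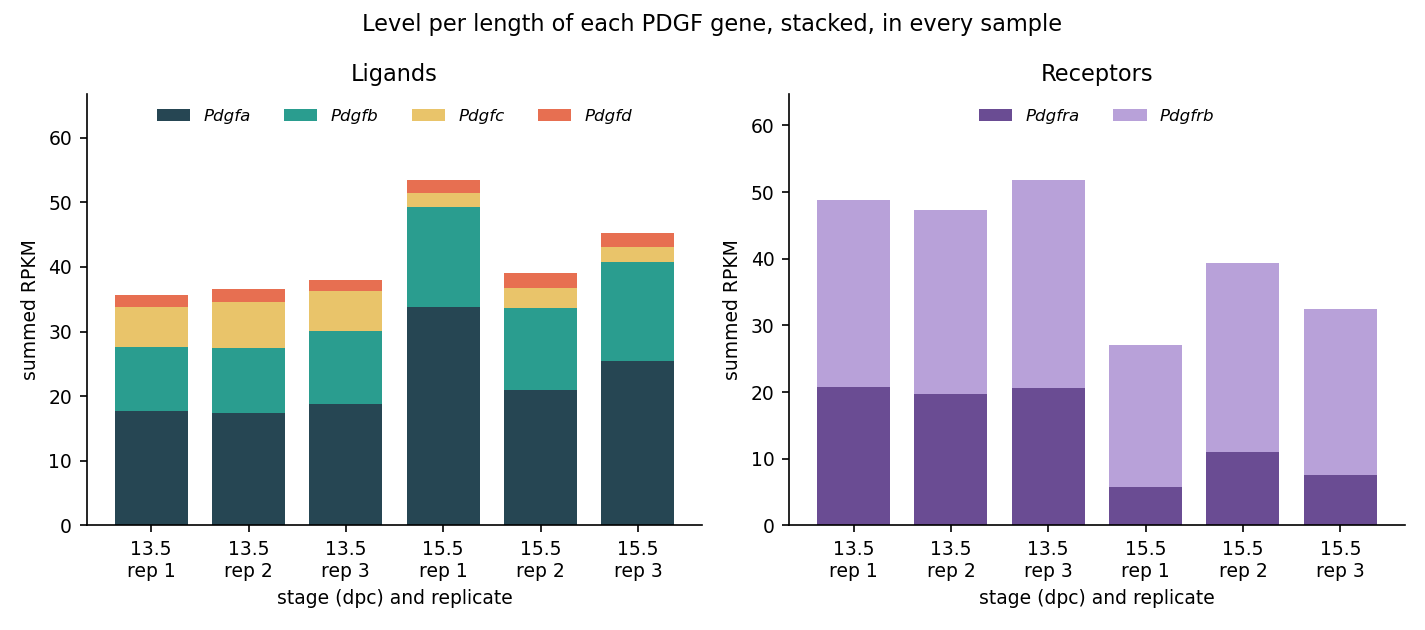
Levels per length in RPKM (vertical axes, from 0) of the ligand genes (left) and receptor genes (right), stacked in each of the 6 samples. The *Pdgfc* part of the ligand bars shrinks from 17.6% to 5.62% on average and the *Pdgfra* part of the receptor bars from 41.3% to 24.1%.

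Because the alpha receptor is a gene of mesenchyme, its fall was set beside markers of the cell types present. Of 10 mesenchyme markers, all tested, 4 fell, 2 rose and 4 did not pass the test, and the median log2 fold change was -0.25. The genes that fell most were those of transcription factors of the pancreatic and gut mesenchyme, *Nkx3-2* (-1.70, adjusted p = 0.00162), *Tcf21* (-1.01, adjusted p = 0.00189) and *Foxf1* (-0.98, adjusted p = 0.0278, edgeR). The small proteoglycan genes *Dcn* (0.61, adjusted p = 0.0127) and *Lum* (0.43, adjusted p = 0.0173, edgeR) rose. The fibrillar collagen gene *Col1a1* changed by -0.12 (adjusted p = 0.602, edgeR), and by 0.05 with the trend with exon length removed. *Nkx3-2* and *Tcf21* fell in all 15 alternative fits, whereas the other calls were lost without 13.5 dpc replicate 1 or 3 or 15.5 dpc replicate 3, and without 13.5 dpc replicate 2 only *Dcn* remained among them. With library size only, *Dcn* and *Lum* were not called, and 5 of the 10 markers were lower and 0 higher. The summed level of the list was 1547 to 1694 RPKM at 13.5 dpc and 1248, 1621 and 1473 RPKM in 15.5 dpc replicates 1, 2 and 3, an order of the 15.5 dpc samples that *Pdgfra* and *Pdgfrb* shared. This order was not particular to mesenchyme, as the summed PDGF pathway genes, mesothelium markers, and neural and glia markers had it too. The difference between 15.5 dpc replicates 1 and 2 also ran with exon length (Spearman rho = -0.59). Of 3 markers of stomach and spleen mesenchyme, *Tlx1* (-1.22, adjusted p = 0.00573) and *Barx1* (-0.72, adjusted p = 0.0313, edgeR) also fell and *Nkx2-5* changed by -0.65 (adjusted p = 0.311). *Barx1* was not called without 13.5 dpc replicate 1, 2 or 3 or 15.5 dpc replicate 3. Their summed level was 55.4 to 60.7 RPKM at 13.5 dpc and 26.5 to 43.2 RPKM at 15.5 dpc, and their part in the fall of *Pdgfra* was not tested.

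Relative to the mean log2 level of the mesenchyme markers, *Pdgfra* was at -1.38 ± 0.05 at 13.5 dpc and -2.34 ± 0.32 at 15.5 dpc (SD, n = 3). It was lower in each 15.5 dpc sample, and the difference was -0.96 (p = 0.1 in a two-sided exact permutation test, the smallest possible, and 0.1 adjusted over the 4 ratios). *Pdgfrb* measured in the same way was at -0.87 ± 0.09 and -0.68 ± 0.06 (SD, n = 3), higher in each 15.5 dpc sample by 0.20 on average (p = 0.1 in a two-sided exact permutation test, and 0.1 adjusted). The mean of the markers includes *Nkx3-2* (-1.70), *Tcf21* (-1.01), *Foxf1* (-0.98) and *Twist1* (-0.60), which fell, and *Dcn* (0.61) and *Lum* (0.43), which rose. Between the stages *Pdgfrb* itself changed by -0.22, near the median change of these markers (-0.25). With the trend with exon length removed the differences were -0.72 for *Pdgfra* and 0.38 for *Pdgfrb*.

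**Figure D4:**
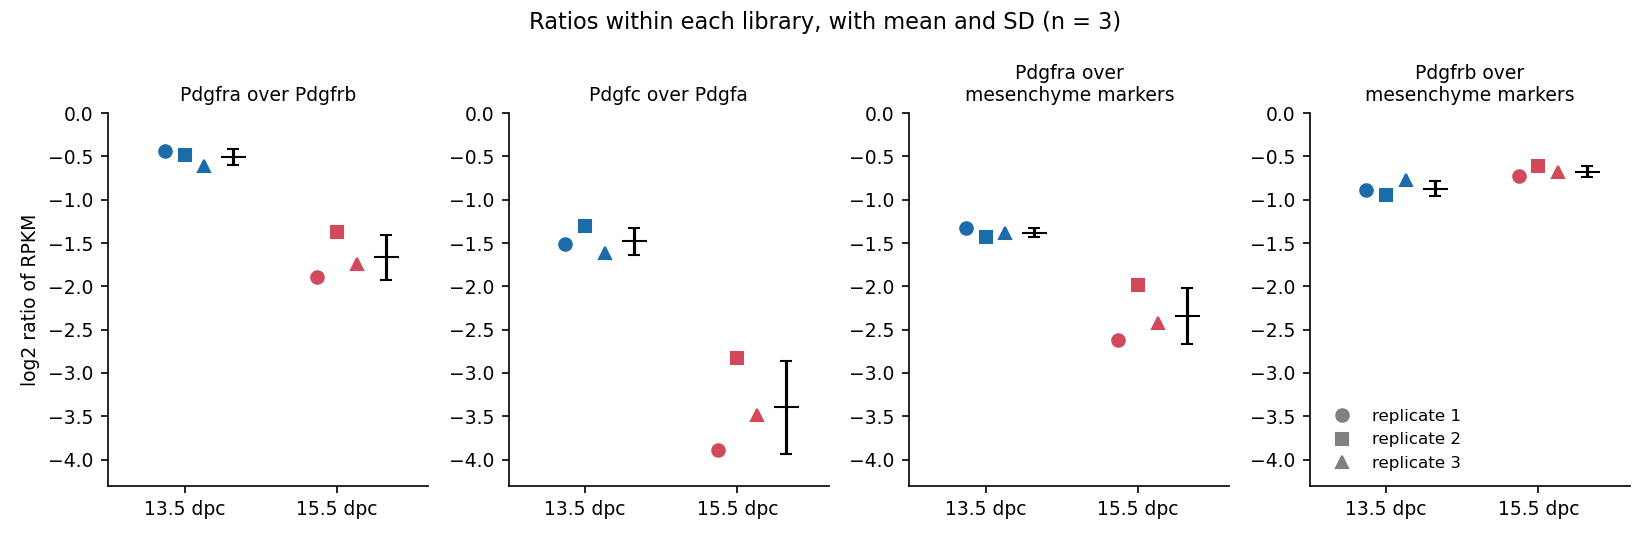
Log2 ratios of RPKM within each library (vertical axes, the same scale in all panels) at 13.5 and 15.5 dpc, with one symbol per replicate and black bars for the mean and SD of 3 samples. *Pdgfra* over *Pdgfrb*, *Pdgfc* over *Pdgfa* and *Pdgfra* over the mesenchyme markers are lower in all 15.5 dpc samples, by 1.16, 1.92 and 0.96 on average, and *Pdgfrb* over the mesenchyme markers is slightly higher.

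Pericytes and vascular smooth muscle are the usual carriers of the beta receptor. Of 10 markers of these cells, all tested, 2 rose, 2 fell and 6 did not pass the test, with a median log2 fold change of -0.07. With the trend with exon length removed, 5 were higher and 3 lower, with a median of 0.01. The contractile genes *Tagln* (1.13, adjusted p = 0.00868) and *Acta2* (0.96, adjusted p = 0.0022, edgeR) rose, and the pericyte genes *Rgs5* (-0.85, adjusted p = 0.00785) and *Kcnj8* (-0.53, adjusted p = 0.0131, edgeR) fell. The 6 that did not pass were *Myh11* (0.78), *Mcam* (0.29), *Cspg4* (0.18), *Des* (-0.32), *Notch3* (-0.54) and *Abcc9* (-0.69). *Tagln* was not called without 13.5 dpc replicate 1, nor *Kcnj8* without 13.5 dpc replicate 1 or 2. The summed level of the list was 164 to 176 RPKM at 13.5 dpc and 173 to 190 RPKM at 15.5 dpc. Of the 8 endothelial markers, from the cells that usually make PDGF-B, *Esam* rose (0.46, adjusted p = 0.0406, edgeR) and the other 7 did not pass the test. *Esam* was called in 9 of 15 alternative fits, and not without 13.5 dpc replicate 1, 2 or 3 or 15.5 dpc replicate 3, with library size only or with the replicate number as a block. The summed level of the 8 endothelial markers was 139 to 144 RPKM at 13.5 dpc and 157 to 171 RPKM at 15.5 dpc, higher in every 15.5 dpc sample as was *Pdgfb*. By gene, 1 of the 8 had all samples of one stage above all of the other, as did 46.4% of all genes. Their median log2 fold change was 0.13 with TMM. It was -0.07 with library size only, where the median over all genes was -0.22. Platelets carry PDGF protein, and the megakaryocyte and platelet genes were low, at 22.3 to 24.6 RPKM in sum at 13.5 dpc and 15.4 to 36.0 RPKM at 15.5 dpc, most of it from *Pf4*. Of 8 epithelial markers 5 rose and none fell, among them the keratin gene *Krt18* (1.17 on the log2 scale), the only one still called without 13.5 dpc replicate 1, 2 or 3. Their summed level was 1043 to 1087 RPKM at 13.5 dpc and 1984, 1365 and 1562 RPKM in 15.5 dpc replicates 1, 2 and 3, the order that *Pdgfa* had in these samples. This order was not particular to epithelium. The summed acinar, endocrine, pericyte and smooth muscle, endothelial, platelet, and macrophage and leukocyte markers had it too. The summed mesenchyme, mesothelium, and neural and glia markers had the reverse order. All 6 acinar markers rose, with a median log2 fold change of 2.08, and their summed level was 1516 to 1795 RPKM at 13.5 dpc and 4615 to 8818 RPKM at 15.5 dpc. The part of these cell types in the changes of the PDGF genes was not tested.

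**Figure D5:**
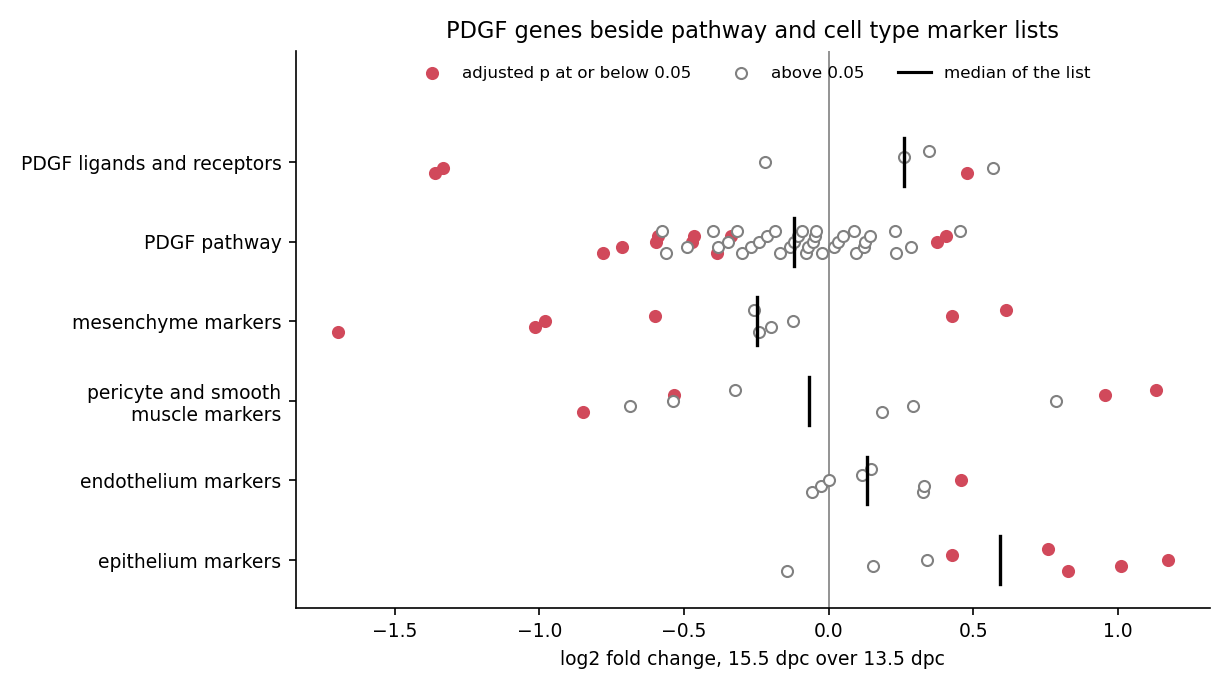
Log2 fold change from 13.5 to 15.5 dpc (horizontal axis) of each gene tested in 6 lists, with filled points for an adjusted p at or below 0.05, open points for the rest, and a black line at the median of each list. *Pdgfra* and *Pdgfc*, the leftmost points of the top line, lie to the left of every gene of the PDGF pathway list.

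The other genes of the pathway had log2 fold changes nearer to 0 than *Pdgfra* and *Pdgfc* with all 6 samples. Of 46 genes of ligand processing, ligand binding and signalling, 45 were tested, of which 2 rose and 8 fell. This is 22.2% of the list against 22.3% of all genes. By direction, 2 of 45 were higher, against 11.6% of all genes, and 8 of 45 were lower, against 10.7%. The median log2 fold change was -0.12, and the range was -0.78 to 0.46. Without 15.5 dpc replicate 2 the lower end was -1.61, for the ubiquitin ligase gene *Cbl*, which was called in that fit alone and was then as low as *Pdgfra* (-1.60). Of the 7 processing enzymes, *St14*, whose product matriptase can activate PDGF-D, rose by 0.40 (adjusted p = 0.0155) and the convertase gene *Pcsk5* fell by 0.59 on the log2 scale (adjusted p = 0.047, edgeR). *Plat*, the gene of tissue plasminogen activator, which activates PDGF-C, had 593 normalised counts on average at 13.5 dpc and 450 at 15.5 dpc, a log2 fold change of -0.40 (adjusted p = 0.0552, edgeR), and the convertase gene *Furin* changed by -0.11 (adjusted p = 0.472). Of 3 genes of ligand binding and co-receptors, that of the receptor-associated protein *Lrp1* fell by 0.78 on the log2 scale (adjusted p = 0.0412, edgeR), and by 0.40 with the trend with exon length removed.

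Of 18 genes of proteins that act directly at the activated receptor, 3 fell and none rose. The share called was 16.7%, where 22.3% of all genes were called in either direction and 10.7% were lower. The genes that fell are named with their values. These were the phospholipase gene *Plcg1* (-0.71, adjusted p = 0.023), the adaptor gene *Gab1* (-0.46, adjusted p = 0.0201) and the kinase gene *Src* (-0.39, adjusted p = 0.0217, edgeR). None of 6 genes of phosphatases and ubiquitin ligases that dampen the receptors passed the test. Among the transcription factor genes, *Elk1* fell (-0.47, adjusted p = 0.0422, edgeR). Of 6 immediate-early target genes, 5 of them tested, *Jun* fell (-0.60, adjusted p = 0.00342) and *Myc* rose (0.38, adjusted p = 0.0433, edgeR). *Jun* was the only pathway gene called in all 15 alternative fits, and it was the only one called without 13.5 dpc replicate 1, 2 or 3 or 15.5 dpc replicate 3.

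Of the nearest relatives of the PDGF receptors, the other class III receptor tyrosine kinases, only *Csf1r* passed the test. The macrophage receptor gene *Csf1r* fell by 0.45 (adjusted p = 0.0293) and its ligand gene *Csf1* by 0.47 (adjusted p = 0.0234) on the log2 scale, whereas *Il34*, which encodes the other ligand of that receptor, rose by 1.76 (adjusted p = 0.00183, edgeR). *Kit* changed by 0.21 (adjusted p = 0.309, edgeR) and its ligand gene *Kitl* by 0.21 (adjusted p = 0.36, edgeR), and *Flt3* was below the filter. The call of *Il34* held in all 15 alternative fits, while those of *Csf1* and *Csf1r* were lost without 13.5 dpc replicate 1, 2 or 3 or 15.5 dpc replicate 3.

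Genes whose pattern was most like that of a member were sought by the Pearson correlation of log2 CPM (counts scaled to the library size) over the 6 samples, among 11272 other genes with a mean of at least 100 normalised counts (11273 for *Pdgfd* and *Pdgfrl*). The 6 samples share 2 stages and their library properties, so that high values arise readily, and the correlations are given as a description. Closest to *Pdgfra* were *Amot* (r = 0.9996), which encodes the YAP-binding protein angiomotin, the ephrin receptor gene *Epha4* (r = 0.9994), *Zmym3*, *Fchsd1* and *Shisa2* (r = 0.9988). *Amot* fell by 1.82 and *Epha4* by 1.82 on the log2 scale (adjusted p = 0.00572 and 0.00418, edgeR), more than *Pdgfra*. Closest to *Pdgfc* were *Atat1* (r = 0.9993), *Fam107b*, *Tm7sf3*, the glutamate receptor gene *Grik1* and *Dctd* (r = 0.9975), of which *Grik1* fell by 1.28 on the log2 scale (adjusted p = 0.00285, edgeR). *Pdgfa* was closest to *Mpv17l2*, *Mrpl57*, *Hyi*, *Pfkl* and *Yrdc* (r = 0.998 to 0.999). For *Pdgfb* the closest were *Spg7*, *Retsat*, *Pomk*, *Adipor1* and *Bcar1* (r = 0.993 to 0.995), and for *Pdgfrb* they were *Hivep1*, *Edc3*, *Ubap2l*, *Sf3b3* and *Cdc42bpb* (r = 0.998 to 1.000). For the scarce genes the values were lower, from 0.963 to 0.994 for *Pdgfd*, led by *Mpp7*, and from 0.970 to 0.984 for *Pdgfrl*, led by *Plpbp*. No member was among the 5 closest genes of another.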

How the data were processed

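RNA-Seq was performed on poly(A) RNA of 6 wt pancreas samples, 3 per stage, with strand-specific libraries. The authors aligned reads to mm10 with GSNAP and assigned those that aligned uniquely to Ensembl genes with featureCounts (v1.4.6 per the labels). The deposited values are raw counts, with no normalisation, and the exon length (other) that featureCounts wrote is deposited beside them. Whether strand was used in counting was checked on the table, where 0 of 296 genes lying wholly within exons of a same-strand gene had 10 counts or more, against 28 of 147 within exons of an opposite-strand gene. Counting was therefore taken as strand-specific.

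Symbols were taken from GENCODE names by Ensembl identifier (35449 of 37224 matched). Counts were filtered with filterByExpr, scaled with TMM and tested with the quasi-likelihood test of edgeR 4.0.16 in R 4.3.3 on 6 samples with no covariate, with Benjamini-Hochberg adjustment over 15578 genes. The standard error of a log2 fold change was taken as its absolute value over the square root of F. Ratios within libraries were tested with exact permutation tests in SciPy 1.17.1. Of the 50-base windows of member transcripts, at most 0.747% occur in other genes, so that counts are little affected by shared reads.

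The members, lists and tests were chosen with earlier results of these data known. Named were all members, at most 3 called genes per direction and subgroup of each list, and the 5 genes most correlated with each member, with the exceptions *Col1a1*, *Nkx2-5*, *Plat*, *Furin*, *Kit*, *Kitl*, *Pf4*, *Pdx1*, *Cdx2*, *Alb*, *Ttr*, *Cbl*, *Twist1*, *Cdh1*, *Flt3*, *Myh11*, *Mcam*, *Cspg4*, *Des*, *Notch3*, *Abcc9* and *6330403L08Rik*, which were chosen after their values were seen. The values of 1 called pathway gene are not reported here. Alternatives were other normalisations, DESeq2 1.42.0, other filters on low counts, a block for the replicate number, removal of genes above 1% of a library, removal of a lowess trend with exon length (span 0.5), other thresholds and each sample left out. The same alternatives were added for the mesenchyme and pericyte lists after seeing the data. The steps were tested on simulated data.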

Additional observations from a re-analysis of the deposited data

How the results depend on the processing

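*Pdgfra*, *Pdgfc*, *Pdgfd* and *Pdgfrl* kept direction and side of the threshold in all 15 alternative fits. *Pdgfa* (0.57, adjusted p = 0.0517) passed with DESeq2 (0.58, adjusted p = 0.017), with no filter on low counts (0.54, adjusted p = 0.0445) and with the trend with exon length removed (0.55, adjusted p = 0.0217), and was 0.36 to 0.73 when each sample was left out in turn. *Pdgfb* lost its call with library size only (0.26) and was 0.43 to 0.58 with each sample left out. *Pdgfrb* was -0.31 to -0.12 with each sample left out. The number of genes called, 3467, was 1454 by the thresholds of the study and 1235 to 7620 with each sample left out, the lowest (1235) without 13.5 dpc replicate 1, followed by replicate 2 (1331) and replicate 3 (1402) of that stage and by replicate 3 of 15.5 dpc (1438), and the highest without 15.5 dpc replicate 2. The pathway genes called, 10, were 1 by the thresholds of the study and 1 to 23 with each sample left out, with 23 without 15.5 dpc replicate 2. With the trend with exon length removed, *Pdgfra* and *Pdgfrb* relative to the mesenchyme markers moved to -0.72 and 0.38. For each of these differences, the cause was not tested. Samples of the same number had correlations of 0.22, -0.22 and 0.04 between their deviations from the mean of their stage. With 3 samples per stage these values cannot exclude a shared origin of samples with the same number. No pairing was used in the main test. With the replicate block, the class III genes *Csf1* and *Csf1r* and the markers *Esam*, *Twist1* and *Cdh1* were not called, 4 pathway genes and 2676 genes in all were called, and no member changed its call. Library size only moved the share of higher genes among those called from 52.1% to 27.7%. The members with the fewest counts were *Pdgfd* and *Pdgfrl*, at 56 to 94 per sample.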
